A study of Mus musculus with 2 samples.

Results

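Costimulatory and checkpoint genes of adipose-tissue macrophages (ATM) were examined in 2 RNA sequencing libraries. The group was a list of 10 genes chosen by name from what their products do, and all 10 were found among the 20330 Ensembl gene identifiers of the table. The WT library came from hMRP8cre-; Hif-1αfl/fl; ApoE-/- mice and the KO library from hMRP8cre+; Hif-1αfl/fl; ApoE-/- mice, both on the C57BL/6 strain. Both genotypes therefore lacked ApoE and carried the loxP-flanked Hif-1α alleles, and they differed in the Cre recombinase, which the human MRP8 promoter drives in myeloid cells. The mice started high-fat diet at an age of 4 weeks per the study's methods and were fed it for 12 weeks per the labels. ATM were then sorted from visceral fat by F4/80 and CD11b. There was 1 library for each genotype, so the spread between animals is unknown and no test between genotypes was run. How many animals were pooled for a library was not given in the sources used here.

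T cells need a signal beside antigen to respond, and antigen-presenting cells give it through surface proteins of the B7 family. CD80 and CD86 stimulate through CD28 and inhibit through CTLA-4, ICOSL binds ICOS, and PD-L1 and PD-L2 inhibit through PD-1. CD40 receives the opposite signal, from T cell to macrophage. CD83 holds MHC class II and CD86 at the surface, ICAM-1 anchors T cells through the integrin LFA-1, and galectin-9 is a ligand of the inhibitory receptor TIM-3. In obese fat, macrophages are abundant and lie beside T cells, on which these proteins act.

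Because HIF-1α is the gene deleted in KO, the start-site regions of the 10 genes were read for the core of the HIF response element (HRE), the letters ACGTG or GCGTG on either strand. RefSeq windows on GRCm38.p6, from 250 bases before to 50 bases after the transcription start, were available for 7 of the 10 genes and were not used for Cd86, Cd40 and Cd83. The core occurred in 3 of these 7 windows, those of Cd274, Icam1 and Havcr2, and in 43.8% of all 32851 windows. The letters ACGTG are also part of the E-box CACGTG. The 250 bases before the start of these 3 genes are shown 5′ to 3′ because they carry the match, with the HRE core in capitals.
Cd274, chr19:29367188-29367437, plus strand: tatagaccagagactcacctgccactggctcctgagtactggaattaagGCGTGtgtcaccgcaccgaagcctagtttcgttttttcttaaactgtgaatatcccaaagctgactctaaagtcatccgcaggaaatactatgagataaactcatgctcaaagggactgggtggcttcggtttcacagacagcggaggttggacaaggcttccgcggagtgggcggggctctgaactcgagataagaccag
Icam1, chr9:21015690-21015939, plus strand: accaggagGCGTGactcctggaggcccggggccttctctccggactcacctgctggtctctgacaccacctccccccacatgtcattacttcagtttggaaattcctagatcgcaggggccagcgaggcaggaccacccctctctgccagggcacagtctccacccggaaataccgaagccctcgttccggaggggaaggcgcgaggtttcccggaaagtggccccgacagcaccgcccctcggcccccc
Havcr2, chr11:46454681-46454930, plus strand: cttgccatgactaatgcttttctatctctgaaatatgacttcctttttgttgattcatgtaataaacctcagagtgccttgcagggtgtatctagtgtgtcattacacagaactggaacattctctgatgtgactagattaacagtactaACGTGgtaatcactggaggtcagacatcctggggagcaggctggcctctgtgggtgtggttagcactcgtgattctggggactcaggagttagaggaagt

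In Cd274 the core lay at bases -201 to -197 from the start, with a second match on the minus strand at bases 40 to 44 after it. In Icam1 it lay at -242 to -238 and in Havcr2 at -100 to -96. A match to the NF-kB consensus was found in Pdcd1lg2 alone, at -244 to -235, and in 4.51% of all windows. A match is a description of the letters and not evidence of binding. The window of Cd80 began at a RefSeq start that lies inside the gene as GENCODE M21 draws it.

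**Figure D1:**
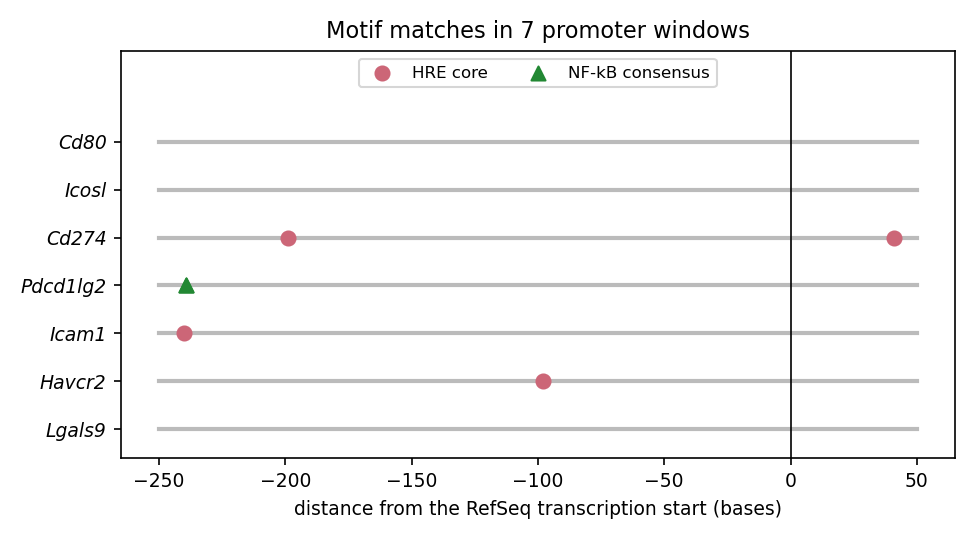
Positions of motif matches in the 7 RefSeq promoter windows, in bases from the transcription start at 0. Grey lines are the windows of 250 bases before to 50 bases after the start, and symbols mark the middle of each match to the HRE core (circle) and the NF-kB consensus (triangle). Cd80, Icosl and Lgals9 had no match to either.

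Deposited values were FPKM, fragments per kilobase of transcript scaled to the mapped fragments of a library, so levels of different genes can be compared per length. FPKM summed to 585823 in WT and 568329 in KO. From the smallest recurring FPKM step the depth was about 5869559 fragments in WT and 7466183 in KO, and fragment numbers below are estimates on this basis that cover counting error only. Of the macrophage markers 11 of 12 were in the table, all were above 0 in both libraries, and their summed FPKM was 15539 in WT and 15035 in KO. C1q genes and Lyz2 made up most of this sum. None of the 11 passed 3-fold, with the widest differences in Mertk, at 38.0 and 88.1 FPKM, and Fcgr1, at 49.3 and 21.9. The sorting marker F4/80 (Adgre1) measured 299 FPKM in WT against 239 FPKM in KO. Hif1a, the targeted gene, measured 30.4 FPKM in WT against 20.97 in KO, a change of -0.52 on the log2(FPKM + 1) scale. This value covers the gene as a whole and not its deleted exon, so it does not check the labels.

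The first question was whether ATM that lack HIF-1α differ from WT in the signals they can show to T cells. All 10 genes were above an FPKM of 1 in both libraries, and none was listed at 0. Differences were called at 3-fold on the log2(FPKM + 1) scale, which makes folds of low genes smaller. None of the 10 was 3-fold higher and none was 3-fold lower in KO, whereas 27.3% of the 10297 genes that reached 1 FPKM in a library passed 3-fold, 13.6% higher and 13.7% lower. Of the 10 genes 7 had a higher value in KO and 3 had a lower one, and 7 differed by less than 1.5-fold. The median change was 0.21, beside 0.03 over all genes, and the median size of change was 0.41, beside 0.87. Cd40 was the only one past 2-fold, and it was lower in KO, as were 22.5% of all genes, while none was 2-fold higher, against 23.1% of all genes. In bulk RNA, fewer cells of a type and less RNA per cell cannot be told apart.

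These shares have to be read by level, since a larger part of the genes passed 3-fold at low levels. The median of the mean FPKM was 30.0 for the 10 genes and 9.43 for all genes. Of genes with a mean FPKM of 1 to 5, 54.1% passed 3-fold, against 26.6% at 5 to 20 FPKM, 9.80% at 20 to 100 and 2.14% above 100. Cd83, Icam1, Lgals9 and Cd86 were above 100, where few genes of any kind differed. Cd40 and Icosl were at 20 to 100, Cd80 and Cd274 at 5 to 20, and Havcr2 and Pdcd1lg2 at 1 to 5.

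**Figure D2:**
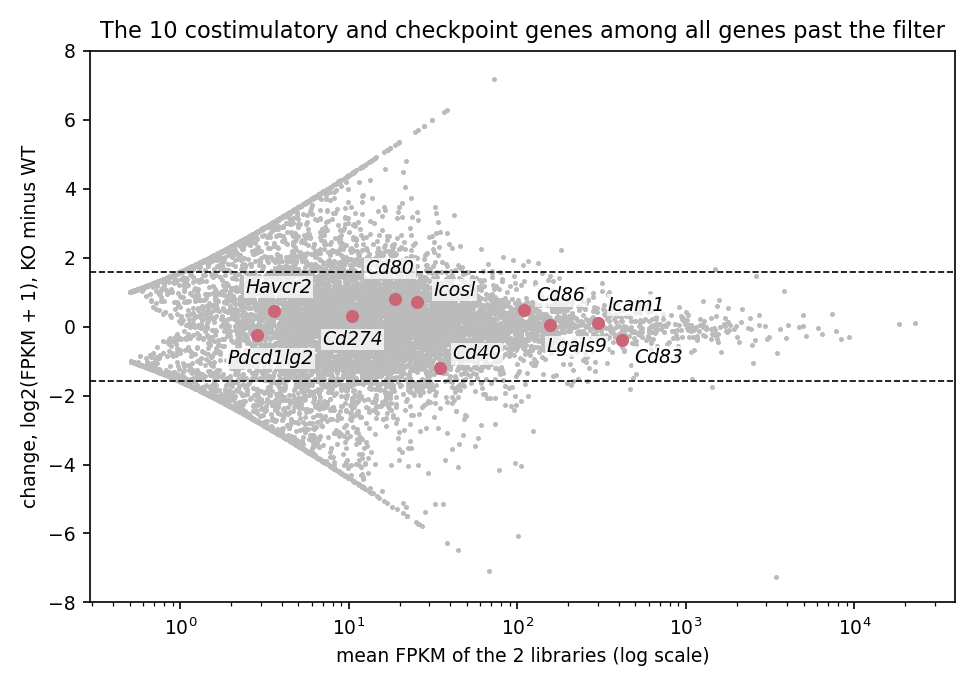
Change between the libraries, log2(FPKM + 1) in KO minus WT, against the mean FPKM of both libraries on a log axis, for the 10297 genes past the filter (grey) and the 10 costimulatory and checkpoint genes (red, named). Dashed lines mark 3-fold. All 10 lie between the lines, and Cd40 at -1.19 is the nearest to one.

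The levels spanned a wide range within each library. In WT the order from the highest was Cd83, Icam1, Lgals9, Cd86, Cd40, Icosl, Cd80, Cd274, Pdcd1lg2 and Havcr2. In KO the first 4 kept their places, Cd40 went from position 5 to position 7 behind Icosl and Cd80, and Havcr2 and Pdcd1lg2 exchanged the last places. With 1 library a genotype it cannot be said which neighbours in this order differ beyond their spread. Cd83, Icam1 and Lgals9 together held 83.0% of the FPKM summed over the 10 genes in WT and 78.8% in KO, and the 5 B7 genes held 12.3% and 18.8%. Among all genes listed above 0, Cd83 stood at percentile 98.03 in WT and 97.6 in KO, Cd40 at 84.8 and 69.6, Cd80 at 57.7 and 72.8, and Havcr2 at 21.1 and 30.7. The group thus ran from genes among the most abundant in ATM to genes in the lower part of those listed.

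**Figure D3:**
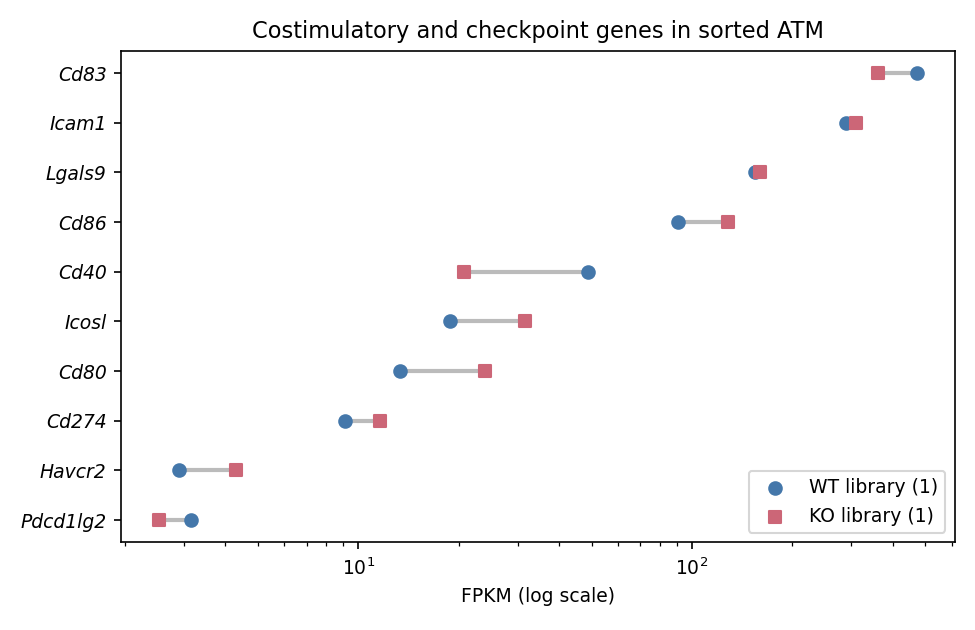
FPKM of each of the 10 genes in the WT library (circle) and the KO library (square), on a log axis, ordered by the mean of both, with 1 library per genotype and no error bar. The grey line joins both values of a gene. Cd40 has the longest line, from 48.8 in WT to 20.8 in KO, and Lgals9 the shortest.

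Among the B7 family, 4 of 5 genes had a higher value in KO. Cd80 (ENSMUSG00000075122, GRCm38 chromosome 16, 38455561 to 38496335) measured 13.3 FPKM in WT against 24.03 FPKM in KO. The change was 0.80 on the log2(FPKM + 1) scale, on an estimated 133 and 305 fragments. It was the largest upward difference among the 10 genes, yet 53.2% of genes at 5 to 20 FPKM had a change at least as large in either direction.

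Cd86 (ENSMUSG00000022901, chromosome 16, 36603869 to 36666081), the second CD28 ligand, measured 91.1 FPKM in WT against 128 FPKM in KO. The change was 0.49, on an estimated 1358 and 2429 fragments, and 29.8% of genes above 100 FPKM changed at least as much. Cd86 exceeded Cd80 in both libraries, by 6.82 times in WT and 5.33 times in KO. The CD28 ligands together summed to 104 FPKM in WT and 152 in KO, and Cd86 was the larger part of the sum in either library.

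Icosl (ENSMUSG00000000732, chromosome 10, 78069302 to 78083913), whose product binds ICOS on activated T cells, measured 18.8 FPKM in WT against 31.7 FPKM in KO. The change was 0.72, a ratio of 1.68 on an estimated 249 and 532 fragments, and 36.4% of genes at 20 to 100 FPKM changed at least as much. Cd80 and Icosl thus lay close together in both libraries, with Cd80 at 0.709 of Icosl in WT and 0.759 in KO.

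The genes of both PD-1 ligands lie side by side on chromosome 19 with 22823 bases between them. Cd274 (ENSMUSG00000016496, 29367455 to 29388095), which encodes PD-L1, measured 9.14 FPKM in WT against 11.6 FPKM in KO, on an estimated 194 and 314 fragments. Its change was 0.31, and 78.6% of genes at 5 to 20 FPKM changed at least as much. Of its HRE cores, 1 is in the sequence shown above.

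Pdcd1lg2 (ENSMUSG00000016498, 29410919 to 29471161), which encodes PD-L2, measured 3.16 FPKM in WT against 2.53 FPKM in KO, a change of -0.24. It rested on an estimated 31.3 and 31.9 fragments, the fewest of the 10 genes, and 91.3% of genes at 1 to 5 FPKM changed at least as much. Cd274 was 2.89 times as high as Pdcd1lg2 in WT and 4.59 times in KO. Both stayed far below Cd86, which exceeded Cd274 by 9.97 times in WT and 11.04 times in KO. The 5 B7 genes summed to 136 FPKM in WT and 198 in KO.

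Cd40 (ENSMUSG00000017652, chromosome 2, 165055627 to 165072948), the receptor of the TNF receptor family through which T cells activate macrophages, had the largest difference of the 10. It measured 48.8 FPKM in WT against 20.8 FPKM in KO, a change of -1.19, so WT exceeded KO by 2.35 times. The values rested on an estimated 324 and 176 fragments. Of the 2378 genes at 20 to 100 FPKM, 17.6% changed at least as much in either direction and 219 (9.21%) had a change as low or lower. Cd40 was 3.65 times as high as Cd80 in WT and 0.865 times in KO. GENCODE M21 lists 7 transcripts of Cd40, and the table does not separate them.

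Cd83 (ENSMUSG00000015396, chromosome 13, 43784775 to 43803132), an immunoglobulin-type membrane protein best known from mature dendritic cells, was the highest of the 10. It measured 472 FPKM in WT, rank 193 of the 9773 genes listed above 0, against 361 FPKM in KO, rank 247 of 10124. The change was -0.39, and 39.04% of genes above 100 FPKM changed at least as much. Cd83 was 9.67 times as high as Cd40 in WT and 17.4 times in KO.

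Icam1 (ENSMUSG00000037405, chromosome 9, 21015985 to 21028817), the adhesion ligand of LFA-1 and Mac-1, measured 289 FPKM in WT against 309 FPKM in KO. The change was 0.10, on an estimated 4299 and 5852 fragments. Of the genes above 100 FPKM 78.9% changed at least as much. An HRE core lies in its window, as in those of Cd274 and Havcr2, and these 3 genes had changes of 0.10, 0.31 and 0.44. Cd80, Icosl, Lgals9 and Pdcd1lg2, whose windows held no core, had changes of 0.80, 0.72, 0.05 and -0.24. A link between core and change was not tested.

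Lgals9 (ENSMUSG00000001123, chromosome 11, 78962974 to 78984946), which encodes galectin-9, measured 154 FPKM in WT against 160.01 FPKM in KO, a change of 0.05 and the smallest of the 10. Its receptor gene Havcr2 (ENSMUSG00000020399, chromosome 11, 46454935 to 46481255), which encodes TIM-3, measured 2.91 FPKM in WT against 4.31 FPKM in KO. That change was 0.44 on an estimated 44.9 and 84.5 fragments, and 84.5% of genes at 1 to 5 FPKM changed at least as much. The ligand mRNA exceeded that of the receptor by 53.0 times in WT and 37.1 times in KO. Of 7 genes of the TIM family and of TIM-3 partners 5 passed the filter, with none past 3-fold in either direction and a median change of -0.39.

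In the reference annotation an antisense gene on the other strand overlaps Cd274, Pdcd1lg2 and Icam1. The library protocol in the labels does not mark strand, so reads of such partners cannot be told apart from those of these 3 genes.

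Further ligands of the same kind were compared as a list of 22 genes, of which 16 passed the filter. Of these, 3 were 3-fold higher in KO, 3 were 3-fold lower and 10 were neither, with a median change of -0.09. The highest were Lgals3 (galectin-3) at 1135 FPKM in WT and 620 in KO, Tnfsf9 (4-1BB ligand) at 179 and 132, and Vsir (VISTA, an inhibitory B7 relative) at 90.7 and 80.9. None of these 3 reached 3-fold.

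Cd47, whose product is the signal against phagocytosis that SIRPα reads, was lower in KO, at 62.05 FPKM in WT and 19.6 in KO, a change of -1.61. With both libraries scaled to the same FPKM sum it no longer reached 3-fold. The other 5 past 3-fold were named after their values were seen, and each was listed at or near 0 in a library. Tnfsf14 (LIGHT) measured 0.0944 FPKM in WT against 19.2 in KO, Vsig4 (an inhibitory B7 relative of resident macrophages) measured 0.127 and 9.65, and Nectin2 (a ligand of TIGIT and CD226) measured 0 and 8.23. Tnfrsf14, which encodes the LIGHT receptor HVEM, was at 13.1 FPKM in WT and listed at 0 in KO, and Icam2 was at 3.32 and listed at 0. No fold is given for these, and 17.1% of all genes past the filter were listed at 0 in a library.

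The receptors on T cells were mostly at or near 0. Of 15 genes 7 passed the filter, with 1 3-fold higher in KO, none 3-fold lower and a median change of 0.07. Pdcd1 (PD-1) and Cd40lg (CD40 ligand) were listed at 0 in both libraries, Ctla4 was at 0 and 0.361 FPKM, Icos at 0.614 and 0, and Cd28 at 1.71 and 1.85. The gene past 3-fold was Cd27, at 0 in WT but 2.59 FPKM in KO, named after its values were seen. The ICAM-1 partners that macrophages also carry were present, with Itgb2 at 188 and 216 FPKM, Itgam at 128 and 128 and Itgal at 6.01 and 5.35. Lag3, an inhibitory receptor for MHC class II, measured 15.8 FPKM in WT against 27.5 in KO.

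**Figure D4:**
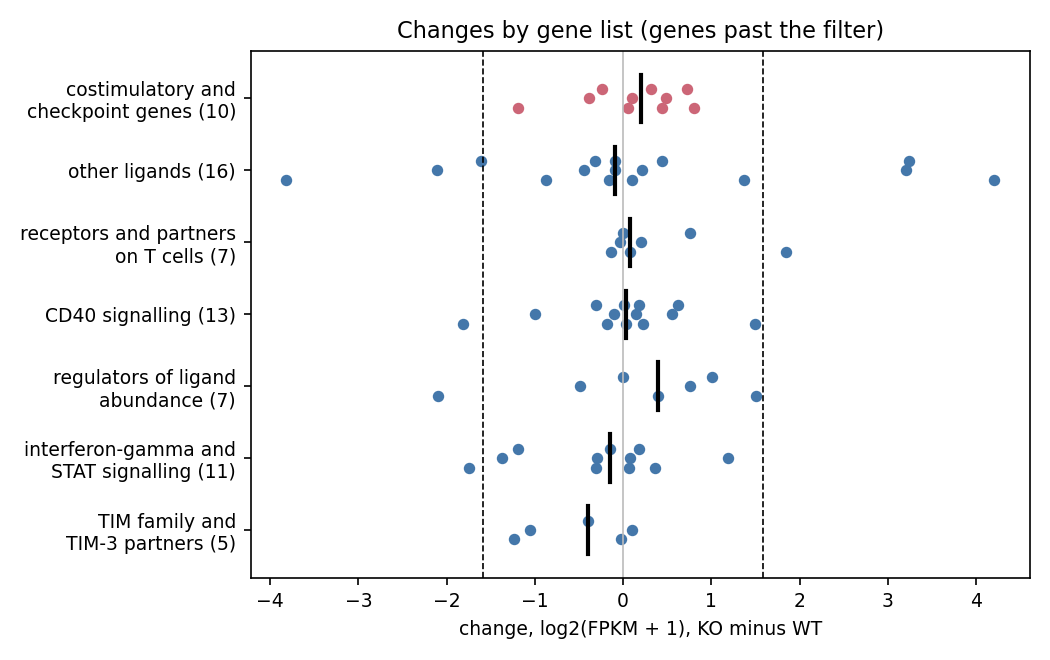
Change between the libraries, log2(FPKM + 1) in KO minus WT, for the 10 costimulatory and checkpoint genes (red) and the genes of 6 related lists past the filter (blue), with the number of genes in brackets. Each point is a gene, black bars are medians and dashed lines mark 3-fold. The 10 genes lie between -1.19 and 0.80, while points of the other ligands reach -3.82 and 4.21. Those ends are Tnfrsf14, listed at 0 in KO, and Tnfsf14, at 0.0944 FPKM in WT. All 10 genes were above 1 FPKM in both libraries.

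Genes that carry the signal of CD40 were compared as well. Of 15 listed, 13 were in the table and passed the filter, with none 3-fold higher, 1 3-fold lower and a median change of 0.03. The lower one was Traf1, an adaptor that NF-kB induces, at 21.6 FPKM in WT and 5.42 in KO, a change of -1.82. Traf2, the adaptor that binds CD40, was at 7.15 and 3.08 FPKM, and Traf6, which also binds it, at 5.42 and 17.1, both named after their values were seen. Neither reached 3-fold on that scale, but Traf6 passed it with a pseudocount of 0.1 or 0.01. Birc3 was at 155 and 144 FPKM, Nfkb2 at 84.5 and 124, and Rela at 88.1 and 88.4, so the most abundant genes of this pathway differed by less than 1.5-fold.

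Proteins that set how much ligand reaches or stays at the surface were compared next. All 7 genes passed the filter, with none 3-fold higher, 1 3-fold lower and a median change of 0.39. Of the 7 genes 5 had a higher value in KO and 2 a lower one. Spop, the highest of the list by mean FPKM, was lower, at 33.05 FPKM in WT and 23.2 in KO. Stub1 was at 13.07 and 13.09 FPKM. Marchf1, a ubiquitin ligase that removes CD86 and MHC class II from the surface, measured 8.17 FPKM in WT against 17.4 in KO and was named after its values were seen. Cop1, a ubiquitin ligase, had the largest upward difference of the list, at 5.73 and 18.1 FPKM, a change of 1.51, and passed 3-fold with a pseudocount of 0.1 or 0.01. It too was named after its values were seen. Cmtm6, which protects PD-L1 from degradation, was at 19.3 and 33.4 FPKM, while its relative Cmtm4, the lower one, measured 3.48 FPKM in WT against 0.0498 in KO, named after its values were seen.

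Interferon-γ is a main inducer of PD-L1, CD40 and ICAM-1. Of 12 genes of its signalling and of STAT signalling 11 passed the filter, with none 3-fold higher, 1 3-fold lower and a median change of -0.15. The lower one was Ciita, the activator of MHC class II genes, at 23.6 FPKM in WT and 6.36 in KO, a change of -1.74. With a pseudocount of 0.01, 2 genes were 3-fold lower, and with the 2-fold threshold 3 were lower and 1 was higher. Ifngr2, a receptor subunit, measured 34.6 FPKM in WT against 14.6 in KO, and Jak2 measured 9.58 against 23.1. Both were named after their values were seen. The 3 highest of the list lay close between the libraries, with Stat3 at 125 and 160.3 FPKM, Irf1 at 114 and 92.2 and Socs3 at 99.5 and 112. Of the 11 genes 5 had a higher value in KO and 6 a lower one.

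Dendritic cells and B cells also carry these ligands, so their markers are given beside the results. Of 9 dendritic cell markers 6 passed the filter, with 1 3-fold higher and 1 3-fold lower, or 1 higher and 4 lower with a pseudocount of 0.1 or 0.01, and their summed FPKM was 131 in WT and 141 in KO. Nearly all of it was Cd209a, at 122 FPKM in WT and 131 in KO. Flt3 was at 0 and 0.0362 FPKM, Clec9a was listed at 0 in both, Xcr1 was at 1.65 and 0.0588 and Zbtb46 at 0 and 9.45. The 1 past 3-fold higher was Zbtb46 and the 1 past 3-fold lower was Ccl22, at 2.62 FPKM in WT and 0.0777 in KO. Fscn1 was at 2.53 and 0.608 FPKM and Dpp4 at 1.27 and 0, and Ccr7, under the filter, was at 0.529 and 0. Their part in the difference of Cd40 was not tested.

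Of the 6 B cell markers 2 passed the filter and the sum was 2.75 FPKM in WT and 6.46 in KO, with Cd79a at 2.50 and 0.222, Cd79b at 0 and 5.52, and Pax5 and Cr2 listed at 0 in both. Cd3e, Cd3d, Cd3g, Cd8a and Lat were listed at 0 in both libraries, and of the 6 T cell markers in the table only Cd4 was above 0, at 5.35 FPKM in WT and 2.07 in KO. All 6 neutrophil markers in the table had higher values in KO, 3 of them 3-fold, with a sum of 143 FPKM in WT and 499 in KO. S100a9 was at 63.4 and 301 FPKM. The part of neutrophil RNA in the values of the 10 genes was not tested.

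Summed FPKM of the remaining markers was 0 in WT and 1.03 in KO for 4 mast cell genes, 14.6 and 16.1 for 5 endothelial genes, 43.1 and 79.5 for 5 fibroblast genes, and 90.1 and 100.1 for 5 adipocyte genes. Of the adipocyte genes Fabp4 made up most of the sum, at 90.1 and 91.4 FPKM, Adipoq and Plin1 were listed at 0 in both libraries, and Cfd, at 0 and 7.11, was 3-fold higher in KO, with Lep at 0 and 1.60. The 3 adipocyte genes past the filter all had a higher value in KO. Of the fibroblast genes Pdgfra was 3-fold higher in KO, at 0.0246 and 4.98 FPKM. Their part in the values of the 10 genes was not tested.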

How the data were processed

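RNA of sorted ATM was sequenced in 1 WT and 1 KO library, after 18 cycles of PCR. The authors deposited 1 table with an FPKM value per Ensembl gene and library. The submitters' processing notes list CASAVA 1.8.2, TopHat2 2.0.9, Cufflinks 2.2.1 and build mm9. Annotation and filters were not given in the sources used here. The mutant column was read as KO.

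Of 20749 rows, 401 that repeated another were dropped, and the FPKM of 18 identifiers with several values was summed. Symbols and lengths (median over coding transcripts) came from GENCODE M21, which matched 20035 identifiers. Coordinates are those of GRCm38 and not of mm9. Change was log2(FPKM + 1), KO minus WT, for genes that reached 1 FPKM in a library, and was called at 3-fold. The pseudocount understates low genes. FPKM are not counts, so no count model was used.

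One fragment was taken as the smallest recurring FPKM x kb in genes with a single transcript, 0.170 in WT (19 genes) and 0.134 in KO (20 genes). The code for the fold calls was tested on simulated data, which gives no error rate for the calls between genotypes. The rule for naming took the 10 genes, Hif1a, and from each list up to 3 of the highest, those past 3-fold at 1 FPKM or more in both libraries, and partners of the 10. Where a gene outside this rule was added, this is stated or it serves as a marker. Genes and lists were chosen with earlier results of these data known. Promoter windows came from RefSeq. A further motif and the value of 1 gene of the lists are not reported here. Python 3.11.15 and pandas 2.3.3 were used.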

Additional observations from a re-analysis of the deposited data

How the results depend on the processing

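The fold changes were computed again with pseudocounts of 0.1 and 0.01, without the filter, with 1 FPKM required in both libraries or a mean of 5 FPKM, with the same FPKM sum, the same upper quartile, the highest row kept for repeated identifiers, and a 2-fold threshold. None of the 10 genes was 3-fold higher or lower in any of them, and with the 2-fold threshold 1 was lower, Cd40. The median change of the 10 genes lay between 0.20 and 0.25. Each of the 10 genes kept its direction wherever it passed the filter, Cd40 between -1.23 and -1.15, Cd80 between 0.80 and 0.85 and Lgals9 between 0.05 and 0.10. Pdcd1lg2 and Havcr2 did not pass a mean FPKM of 5. Scaling moved the median of all genes by at most 0.04. Values of the gene lists stayed within 1.5-fold in 313 recomputations and moved by more in 62. The median change of the dendritic cell markers went from -1.16 to -2.68 and -3.32 with pseudocounts of 0.1 and 0.01, and to 0.09 with 1 FPKM required in both libraries and with a mean of 5 FPKM, each of which left 1 of them, Cd209a. That of the macrophage markers went from -0.002 to 0.04 with the same FPKM sum. The medians of the other lists kept their sign or were 0.

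Depth limits Pdcd1lg2 and Havcr2 most. On 2000 nt of transcript, 3 fragments are worth 0.256 FPKM in WT and 0.201 in KO. The spread between libraries of 1 genotype is unknown. No paired analysis was possible because WT and KO were 1 library each.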
